A study of Mus musculus with 16 samples.

Results

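The genes described here are 5 markers of the early post-implantation (formative) epiblast, Otx2, Pou3f1, Fgf5, Sox3 and Tcf15, taken by symbol from a deposited mouse RNA-seq table of 34042 genes. They were followed across 16 libraries of cultured pluripotent cells in 4 groups, each defined by a labelled stem cell type and culture medium. The formative stem cell group (FS, grown in A3XR) had 6 libraries, from passages 10, 12 and 14 of the line 5ar1 and passages 4, 5 and 12 of the line 5ar3. Epiblast stem cells (EpiSCs) gave 3 libraries of the line AFX6 in AFX medium at passages 5, 8 and 12 (EpiSC_AFX). They gave another 3 of the line AF32 in AF medium at passages 13, 14 and 15 (EpiSC_AF). The naive-medium group of embryonic stem cells (ES, grown in 2iL) was the line E14IV-C, with 4 libraries at passages 12, 13, 15 and 20. No genotype or treatment other than the medium is given in the labels. Each group outside FS is 1 line, so line and medium cannot be told apart there. Replicates are passages of a line, so p-values measure only the spread between these samples, which may be partly technical.

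Formative pluripotency is the phase between the naive state of the pre-implantation epiblast and the primed state that responds to gastrulation signals. In the mouse embryo the 5 genes are known to come on as the epiblast leaves the naive state. Fgf5 encodes a secreted fibroblast growth factor. Otx2 is a homeobox factor that directs enhancer use in the post-implantation epiblast, and Pou3f1 (Oct6) is a POU-domain factor of the epiblast and early neural lineages. Sox3 is an X-linked SoxB1 factor related to Sox2, and Tcf15 is a basic helix-loop-helix (bHLH) factor associated with priming of pluripotent cells and later with paraxial mesoderm.

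Total counts were 22069338 to 33290250 per library. Mitochondrial rRNA genes took 11.05% to 27.76% of the counts in 15 libraries and 40.1% in the ES library of passage 12. Naive markers checked the labels, and 12 of 12 were lower in FS than in ES. Their summed level was 3467 to 4587 CPM (counts relative to library size, on the TMM scale) in ES and 95.1 to 169.3 CPM in FS. All 12 were also lower than ES in EpiSC_AFX (sum 151.2 to 272.7 CPM) and in EpiSC_AF (212.6 to 275.7 CPM). The check thus sets FS apart from ES but cannot check its label against those of the EpiSC groups. Markers of anterior and definitive endoderm summed to 275.3 to 780.3 CPM in EpiSC_AF, 2.81 to 169.8 in EpiSC_AFX, 0.815 to 11.4 in FS and 7.26 to 14.7 in ES. The fibroblast list was highest in EpiSC_AF as well, at 44.6 to 82.8 CPM against 17.5 to 35.9 in FS, 12.5 to 22.7 in EpiSC_AFX and 2.03 to 2.30 in ES. In FS against ES, 5 of its 7 tested genes were called higher (Col1a1, Col1a2, Col3a1, Dcn and Thy1), and their part in the differences of the 5 markers was not tested. Xist stood at 402 ± 156 CPM in EpiSC_AFX (SD, n = 3) and at a mean of at most 0.254 CPM in the other groups.

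All 5 genes lie on different chromosomes (GRCm38, the same assembly as mm10, gene spans from GENCODE M21). Fgf5 spans chr5:98254184-98277030 on the plus strand with 3 exons. Otx2 spans chr14:48657677-48673819 on the minus strand with 7 exons after merging of its transcripts. Pou3f1 is a single exon at chr4:124656807-124660655 on the plus strand and Sox3 a single exon at chrX:60891366-60893430 on the minus strand. Tcf15 spans chr2:152143561-152149097 on the plus strand with 2 exons. RefSeq promoter sequences of GRCm38.p6 were matched for 2 of the 5 genes, Fgf5 and Otx2. The 250 bases before a start site are shown for these so that the gene with the widest and the gene with the narrowest rise over ES, among those that rose, can be compared. The Fgf5 window is chr5:98253934-98254183, plus strand, upstream of all annotated transcripts, and the Otx2 window is chr14:48667645-48667894, minus strand, before the start of transcript Otx2-208 and inside an intron of Otx2-210. Each is written 5′ to 3′ in the direction of transcription, and capitals mark a match to a searched motif.
Fgf5: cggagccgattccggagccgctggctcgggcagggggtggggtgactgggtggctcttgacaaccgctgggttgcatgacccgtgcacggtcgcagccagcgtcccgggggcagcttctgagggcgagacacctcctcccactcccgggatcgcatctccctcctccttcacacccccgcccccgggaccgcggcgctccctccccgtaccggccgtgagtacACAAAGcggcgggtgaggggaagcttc
Otx2: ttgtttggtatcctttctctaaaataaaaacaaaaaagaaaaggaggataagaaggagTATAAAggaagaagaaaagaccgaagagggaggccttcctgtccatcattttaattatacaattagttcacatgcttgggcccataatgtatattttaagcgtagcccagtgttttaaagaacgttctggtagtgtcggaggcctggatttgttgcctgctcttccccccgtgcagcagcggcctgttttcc

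The motifs searched on both strands were TAATCC, which OTX homeobox factors are known to bind, and the octamer ATGCAAAT of POU factors. For SOX factors the searched strings were ACAAAG and ACAATG. For the TATA box the string TATAAA was used. The E-box of bHLH factors was searched as CANNTG. The Fgf5 window held ACAAAG at 27 bases before the start and none of the others, and ACAAAG was present in 16.5% of all 32851 windows of this length. The Otx2 window held TATAAA at 192 bases before the start, a motif found in 12.4% of windows. It also held a CANNTG, left in lower case, at 124 bases, and this motif was in 66.2% of windows. TAATCC was in 6.25%, ATGCAAAT in 1.6% and ACAATG in 10.7% of windows. The Fgf5 window was 70.8% G and C and the Otx2 window 42%. RefSeq has 4 starts for Otx2, and the windows of the other 3 are not shown because they overlap UTR exons. None of those 3 held TATAAA, and 1 of them held TAATCC on the opposite strand at 211 bases. Counts were made per gene, so they do not tell which start was used.

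Whether the formative markers were switched on relative to naive cells was asked first, by comparing FS with ES. Fgf5, Pou3f1, Sox3 and Otx2 were higher in FS and Tcf15 was not called. That is 4 of 5 genes called higher at an adjusted p under 0.05 by edgeR's quasi-likelihood test, where 32.9% of the 18555 tested genes were called higher and 62.8% were called in either direction. The median log2 fold change was 5.80 for the 5 genes and 0.04 over all tested genes. The libraries of FS and ES did not overlap for the same 4 genes, against 24.4% of tested genes that were higher without overlap. In bulk RNA, a change in the share of cells that express a gene and a change in RNA per cell cannot be told apart.

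**Figure D1:**
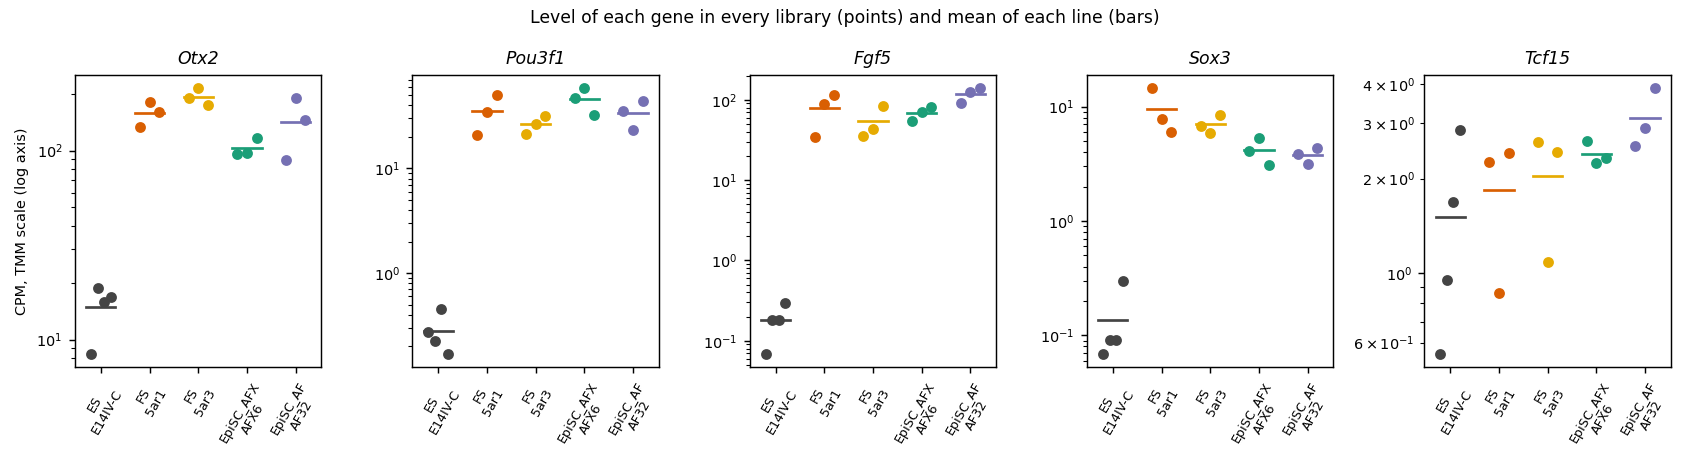
Level of each gene in CPM (log axis) in every library, with a panel per gene and a column per line. Points are libraries in passage order, and bars are line means. Fgf5, Pou3f1 and Sox3 lie at or below 0.456 CPM in all 4 ES libraries and at or above 3.07 CPM in all 12 others, Otx2 is lower in ES without overlap, and the Tcf15 ranges of ES and FS overlap.

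Fgf5, the secreted ligand, was close to absent in ES. Its ES levels were 0.0691, 0.181, 0.182 and 0.298 CPM at passages 12, 13, 15 and 20, from 1, 4, 4 and 7 reads. In FS it ranged from 33.95 to 115.1 CPM, with a median of 63.9 CPM and a mean of 66.9 ± 34.1 CPM (SD, n = 6). The FS and ES ranges lay far apart. Pooled over libraries, the FS to ES ratio was 354.1, with an exact 95% counting interval of 218 to 619.8 that covers counting error only. The log2 fold change was 8.40 (SE 0.53, edgeR adjusted p = 4.18e-10). EpiSC_AFX gave 82.4, 53.9 and 71.0 CPM at passages 12, 5 and 8, and EpiSC_AF gave 90.7, 124.6 and 140.8 CPM at passages 13, 14 and 15. Fgf5 was thus highest in EpiSC_AF, and the FS range overlapped those of both EpiSC groups, with its lowest library below either of them.

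Otx2 was the only one of the 4 higher genes with a clear level in naive cells. ES libraries gave 8.43, 18.65, 15.9 and 16.8 CPM at passages 12, 13, 15 and 20. FS libraries ranged from 132.7 to 214.6 CPM with a median of 176.7 CPM, and averaged 175.2 ± 27.5 CPM (SD, n = 6). The lowest FS library stood well above the highest ES library. The log2 fold change was 3.55 (SE 0.25, edgeR adjusted p = 1.55e-09), and the pooled ratio was 11.15 (95% counting interval 10.55 to 11.81). EpiSC_AFX libraries gave 116.9, 96.4 and 96.6 CPM at passages 12, 5 and 8, all below FS. EpiSC_AF libraries gave 88.65, 190.4 and 144.9 CPM at passages 13, 14 and 15, and overlapped both FS and EpiSC_AFX. The antisense transcript Otx2os1 shares exon sequence with Otx2, and its mean level was 0.885 CPM in FS and 0.183 CPM in ES, below that of Otx2 in both. Gm49154, annotated on the same strand as Otx2, overlaps its span by 1726 bases. Of the 50-base windows of Otx2 transcripts, 2.75% also occur in Gm49154 or Otx2os1.

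Pou3f1 was near the limit of counting in ES. Its ES levels were 0.276, 0.226, 0.456 and 0.170 CPM, from 4, 5, 10 and 4 reads. FS ranged from 20.8 to 50.2 CPM with a median of 29.3 CPM, and averaged 30.9 ± 10.9 CPM (SD, n = 6). Its log2 fold change over ES was 6.76 (SE 0.40, edgeR adjusted p = 1.83e-10). The pooled ratio was 112.2, with a 95% counting interval of 74.7 to 177.1. EpiSC_AFX gave 32.3, 47.2 and 58.7 CPM at passages 12, 5 and 8, and EpiSC_AF gave 35.45, 23.4 and 43.5 CPM at passages 13, 14 and 15. The FS, EpiSC_AFX and EpiSC_AF ranges all overlapped. Of the 50-base windows of its transcript, 7.42% also occur in the antisense gene Gm2164, and the strand setting of the counting is not given in the sources used here.

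Sox3 had the lowest level of the 4 higher genes in FS. Its mean, like that of Otx2, was highest in FS. ES libraries gave 0.0691, 0.0903, 0.0911 and 0.298 CPM, from 1, 2, 2 and 7 reads. FS ranged from 5.89 to 14.6 CPM with a median of 7.33 CPM, and averaged 8.26 ± 3.27 CPM (SD, n = 6). The FS to ES log2 fold change was 5.80 (SE 0.43, edgeR adjusted p = 3.73e-09), and the pooled ratio was 56.7 with a 95% counting interval of 32.4 to 110.1. EpiSC_AFX libraries gave 3.07, 4.07 and 5.32 CPM and EpiSC_AF libraries 3.86, 3.14 and 4.35 CPM, each below the lowest FS library. None of the 50-base windows of Sox3 occurs in another gene.

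Tcf15 was low in every group. ES libraries gave 0.553, 0.948, 1.69 and 2.85 CPM at passages 12, 13, 15 and 20, from 8, 21, 37 and 67 reads. FS ranged from 0.861 to 2.62 CPM with a median of 2.33 CPM, and averaged 1.94 ± 0.764 CPM (SD, n = 6). The ES range enclosed the whole FS range. The log2 difference was 0.34 (SE 0.40, edgeR adjusted p = 0.466), and the pooled ratio was 1.20 with a 95% counting interval of 0.98 to 1.49. EpiSC_AFX gave 2.33, 2.64 and 2.24 CPM and EpiSC_AF gave 2.54, 2.91 and 3.89 CPM. EpiSC_AF had the highest mean, at 3.11 ± 0.700 CPM (SD, n = 3), and its log2 difference from ES was 1.02 (SE 0.46, edgeR adjusted p = 0.0655). Without the ES library of passage 20, where Tcf15 was highest among ES, that difference was 1.52 and was called (edgeR adjusted p = 0.00986). The same omission made the EpiSC_AFX difference from ES 1.14 (edgeR adjusted p = 0.0444), against 0.65 with all libraries (adjusted p = 0.246).

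The lowest ES value of Otx2, Fgf5, Sox3 and Tcf15 was in the passage 12 library, the one with 40.1% mitochondrial rRNA. The part of this library in the differences was tested by leaving it out. Over all omissions of 1 library, the FS to ES log2 fold change ran from 3.36 to 3.66 for Otx2, 6.55 to 7.11 for Pou3f1, 8.17 to 8.73 for Fgf5 and 5.55 to 6.52 for Sox3, and 4 of 5 genes were called higher each time. That of Tcf15 ran from 0.09 without passage 12 to 0.84 without passage 20, and was not called.

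Both EpiSC groups showed the same 4 genes above ES, and these comparisons share the ES libraries with the FS one. In EpiSC_AFX against ES, 4 of 5 genes were called higher, where 28.5% of tested genes were called higher and 54.7% in either direction. The log2 fold changes were 8.45 for Fgf5, 7.33 for Pou3f1, 4.80 for Sox3 and 2.78 for Otx2. In EpiSC_AF against ES, 4 of 5 were called higher, where 29.7% of tested genes were called higher and 56.7% in either direction. The log2 fold changes there were 9.23 for Fgf5, 6.90 for Pou3f1, 4.67 for Sox3 and 3.24 for Otx2. By edgeR's quasi-likelihood test the adjusted p of these 8 differences was at most 1.61e-07. With passage as a covariate, the Fgf5 value was 9.53 in EpiSC_AFX against ES and 9.20 in FS against ES. Without the ES library of passage 20, the Sox3 value was 5.53 in EpiSC_AFX, 5.39 in EpiSC_AF and 6.52 in FS, each against ES.

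**Figure D2:**
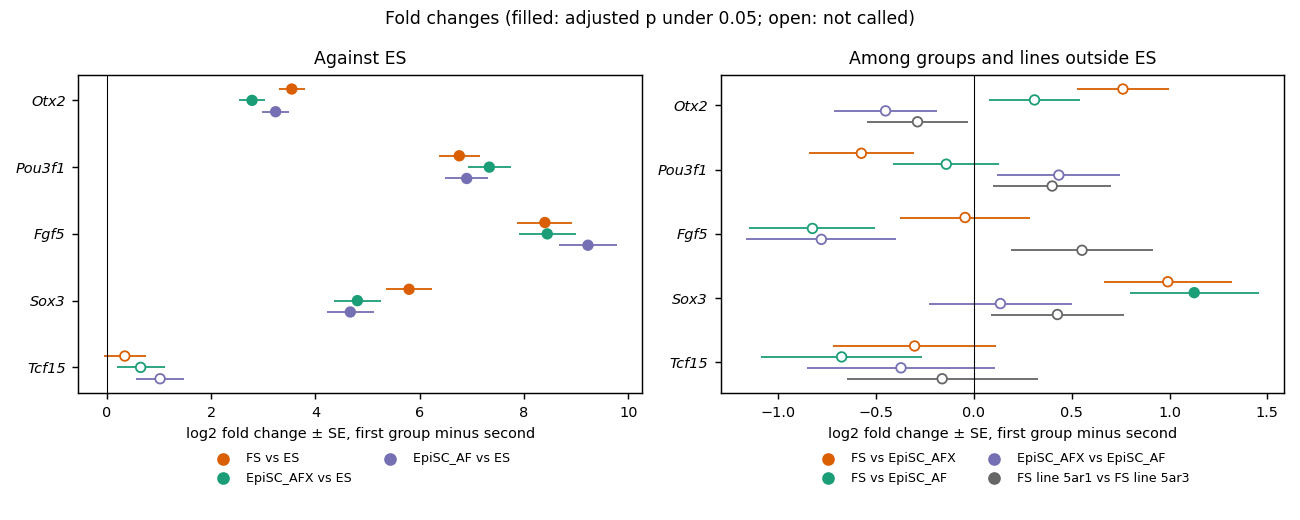
Log2 fold change and its standard error for each gene, against ES on the left and among the other groups and FS lines on the right. Filled points had an edgeR adjusted p under 0.05. All of Otx2, Pou3f1, Fgf5 and Sox3 are filled against ES, whereas on the right only Sox3 in FS against EpiSC_AF is filled, at 1.13.

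Whether the markers separate formative from primed cultures was asked by comparing FS with each EpiSC group. Against EpiSC_AFX none of the 5 genes was called by edgeR, where 5% of tested genes were called, and 3 of the 5 had an unadjusted p under 0.05. Otx2 was 1.69-fold higher in FS (log2 0.76, SE 0.24, adjusted p = 0.0743) and Sox3 1.99-fold higher (log2 0.99, SE 0.33, adjusted p = 0.0939). For both genes every FS library was above every EpiSC_AFX library, as was so for 5.46% of tested genes. DESeq2's Wald test called both, with adjusted p = 0.0256 for Otx2 and 0.0252 for Sox3. Otx2 was also called by edgeR when only these groups were fitted (adjusted p = 0.0262) and with the FS line 5ar3 alone (adjusted p = 0.0479). Pou3f1 had a log2 difference of -0.58 (adjusted p = 0.260), Tcf15 of -0.30 (adjusted p = 0.788) and Fgf5 of -0.05 (adjusted p = 0.977). For Fgf5 the sign turned with total-count scaling, to 0.10, and with 5ar1 alone, to 0.19. Markers of other cell types also differed in this comparison. Cer1, Lhx1 and Sox17 of the endoderm list and the neural marker Nes were called lower in FS, and Pax6 and Thy1 were called higher. In EpiSC_AFX, Cer1 had a median of 2.00 CPM and a maximum of 90.97 CPM. Lhx1 had 0.464 and 23.1 CPM there, and Sox17 had 0.102 and 13.05 CPM. With 5ar3 alone, 0 of the 7 endoderm genes were called. The Nes call was lost under 10 of 20 alternatives and the Pax6 call under 3. The part of these markers in the values of Otx2 and Sox3 was not tested.

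Sox3 is X-linked and the groups differed in markers of the sex chromosomes. Besides Xist, the Y-linked genes Uty, Ddx3y and Eif2s3y each averaged at most 0.193 CPM in EpiSC_AFX and at least 54.2 CPM in ES, FS and EpiSC_AF. A further Y-linked gene, Kdm5d, averaged 42.3 CPM in FS and 0.0457 CPM in EpiSC_AFX. Unlike the others it was also low in ES, at 1.55 CPM, and in EpiSC_AF, at 0.702 CPM. The median log2 difference between FS and EpiSC_AFX was 0.07 over 686 X-linked genes and 0.04 over autosomal genes. Of the X-linked genes 7.43% were called in this comparison, and of the autosomal genes 4.86%. The part of X dosage in the Sox3 values was not tested.

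Against EpiSC_AF, Sox3 was the 1 gene of 5 called, and it was higher in FS, where 7.84% of tested genes were called higher and 16.6% in either direction. Its level was 2.18-fold that of EpiSC_AF (log2 1.13, SE 0.33, edgeR adjusted p = 0.0260), with every FS library above every EpiSC_AF library, as in 9.25% of tested genes. The call was lost on leaving out any of the EpiSC_AF libraries, with adjusted p = 0.0936, 0.122 and 0.0617 without passages 13, 14 and 15. It was also lost with the FS line 5ar3 alone (adjusted p = 0.0587). Fgf5 had a log2 difference of -0.83 (SE 0.32, edgeR adjusted p = 0.0913). It was called lower in FS without the 5ar1 library of passage 14 (log2 -1.05, adjusted p = 0.0199) and with 5ar3 alone (log2 -1.12, adjusted p = 0.0151). With passage as a covariate the Fgf5 difference was -0.27 (adjusted p = 0.475). Otx2 had a log2 difference of 0.31 (adjusted p = 0.407), Pou3f1 of -0.14 (adjusted p = 0.786) and Tcf15 of -0.68 (adjusted p = 0.292). The EpiSC_AF libraries also carried the endoderm markers given above, 7 of 7 of which were lower in FS, and their part in the differences was not tested.

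The EpiSC groups were compared with each other, and none of the 5 genes was called by edgeR, where 4.26% of tested genes were called; none had an unadjusted p under 0.05. DESeq2's Wald test likewise called none of the 5. Fgf5 was lower in EpiSC_AFX in every library (log2 -0.78, SE 0.38, adjusted p = 0.307), as were 17.9% of tested genes. Fgf5 was called when only these groups were fitted (edgeR adjusted p = 0.0397). The passages of these groups did not overlap, and with passage as a covariate the difference was 0.05 (adjusted p = 0.961). Otx2 differed by -0.45, Pou3f1 by 0.43, Tcf15 by -0.37 and Sox3 by 0.14 on the log2 scale.

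Between the FS lines, which share the medium, none of the 5 genes was called by edgeR, where 3.88% of tested genes were called. None of the 5 had an unadjusted p under 0.05, and DESeq2's Wald test called none. Log2 differences of 5ar1 over 5ar3 were 0.55 for Fgf5, 0.43 for Sox3, 0.40 for Pou3f1, -0.16 for Tcf15 and -0.29 for Otx2, with standard errors of 0.26 to 0.49. Libraries of the lines overlapped for all 5 genes, and did not for 18.7% of tested genes. The Sox3 difference rests on the 5ar1 library of passage 10, which at 14.6 CPM was the highest of all, and without it the log2 difference was -0.04.

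Passage was examined within lines because every line was sampled several times. A common slope on passage was called for none of the 5 genes by edgeR, where 0.00539% of tested genes, a single gene (Xlr3a), were called. Fgf5 had the smallest p of the 5, the 8th smallest of 18555 genes, with a slope of 0.16 log2 units per passage (SE 0.032, unadjusted p = 0.000118, adjusted p = 0.232). DESeq2's Wald test called Fgf5 (adjusted p = 0.0167). So did edgeR without the low-count filter (adjusted p = 0.0151) and without the 5ar1 library of passage 10 (adjusted p = 0.0466). Slopes of the other genes were 0.09 for Tcf15 (adjusted p = 0.600), 0.03 for Otx2 and Pou3f1 and 0.01 for Sox3.

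Fgf5 in 5ar1 was 33.95, 89.7 and 115.1 CPM at passages 10, 12 and 14. In 5ar3 it was 34.9, 43.3 and 84.6 CPM at passages 4, 5 and 12. With the EpiSC and ES values above, it was higher at each later passage in 5 of 5 lines, although the ES step from passage 13 to 15 was 4 reads at both. This ordering, chosen after the values were seen, was met by 0.0108% of tested genes, which are Fgf5 and Xlr3a. Separate slopes were 0.44 in 5ar1 (edgeR adjusted p = 0.0916), 0.15 in 5ar3 (adjusted p = 0.111) and 0.16 in E14IV-C (adjusted p = 0.625). They were 0.32 in AF32 and 0.09 in AFX6, and the slope was called in none of the lines. A joint test that the slopes differ between lines gave an edgeR adjusted p of 0.413. Sox3 fell at each later passage in 5ar1, with a slope of -0.32 (adjusted p = 0.149), and Pou3f1 rose there with a slope of 0.32 (adjusted p = 0.160), and neither passed the test.

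**Figure D3:**
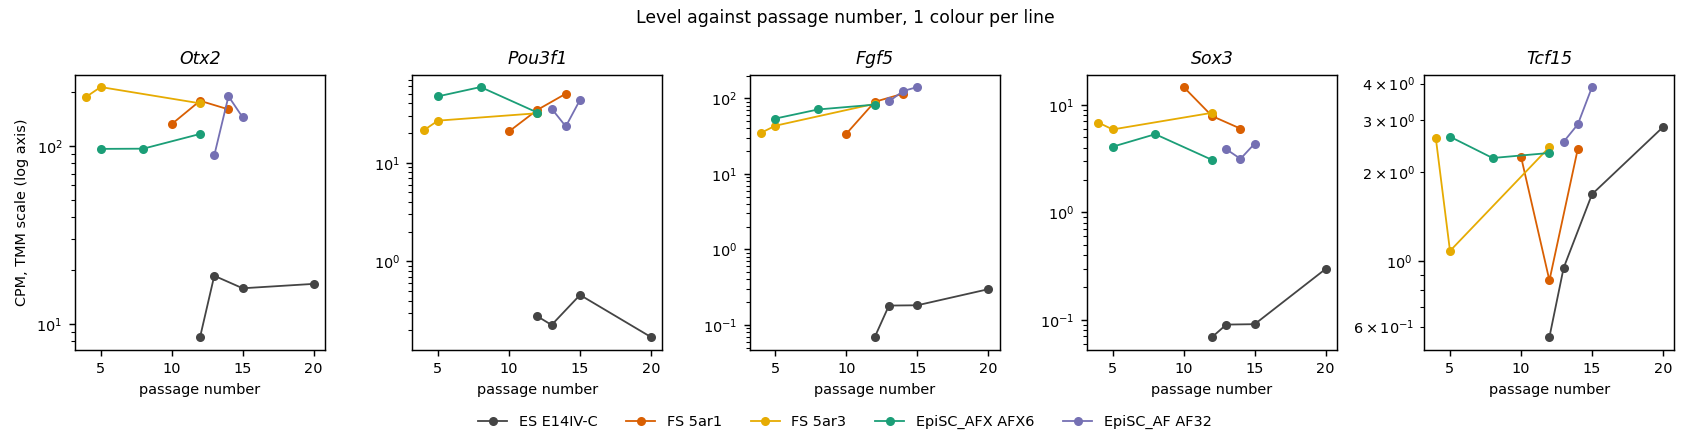
Level in CPM (log axis) against passage number, with a panel per gene and a colour per line; lines join the libraries of a cell line. Fgf5 climbs from left to right in all 5 lines, from 33.95 to 115.1 CPM in 5ar1, whereas the other genes show no ordering shared by all lines. In ES the Fgf5 values rest on 1 to 7 reads, with 4 reads at both passage 13 and passage 15.

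Levels were compared between genes as CPM per kb of exon. In FS the order was Otx2 at 41.5, Fgf5 at 26.8, Pou3f1 at 8.03, Sox3 at 4 and Tcf15 at 1.98 CPM per kb. In EpiSC_AFX and EpiSC_AF, Fgf5 came first, at 27.6 and 47.5, and Otx2 second, at 24.5 and 33.5 CPM per kb. In ES, Otx2 stood at 3.54 and Tcf15 at 1.54 CPM per kb, and Pou3f1, Fgf5 and Sox3 at 0.0733, 0.0729 and 0.0663. Tcf15 was thus the second gene of the 5 in ES and the lowest in FS.

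Relatives of the 5 genes were examined next. Of 12 listed relatives 7 were tested, and in FS against ES 3 were called higher and 2 lower by edgeR, where 62.8% of all tested genes were called and 32.9% were called higher. Sox2, the SoxB1 factor of the naive and primed epiblast, was lower in FS (log2 -1.44, adjusted p = 1.3e-05). It stood at 102.3 CPM per kb in ES and 37.7 in FS, while Sox3 stood at 0.0663 in ES and higher in FS. Fgf4, the growth factor made by naive cells, was lower as well (log2 -3.86, adjusted p = 1.43e-05), opposite to Fgf5. Pou5f1 (Oct4) did not pass the test (log2 0.01, adjusted p = 0.972), and Pou3f2 (4.21), Pou3f4 (4.99) and Sox1 (3.13) were called higher. With 5ar1 alone, Pou3f4 was not called (adjusted p = 0.162), and Sox1 turned to -0.22 (adjusted p = 0.791). Otx1 was at or below 0.06 CPM per kb in every group. Against EpiSC_AF, Sox2 was higher in FS like Sox3 (log2 1.26, adjusted p = 0.00192), and Pou3f2 was lower (log2 -1.44, adjusted p = 0.0369). The Pou3f2 call was lost under 11 of 19 alternatives.

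**Figure D4:**
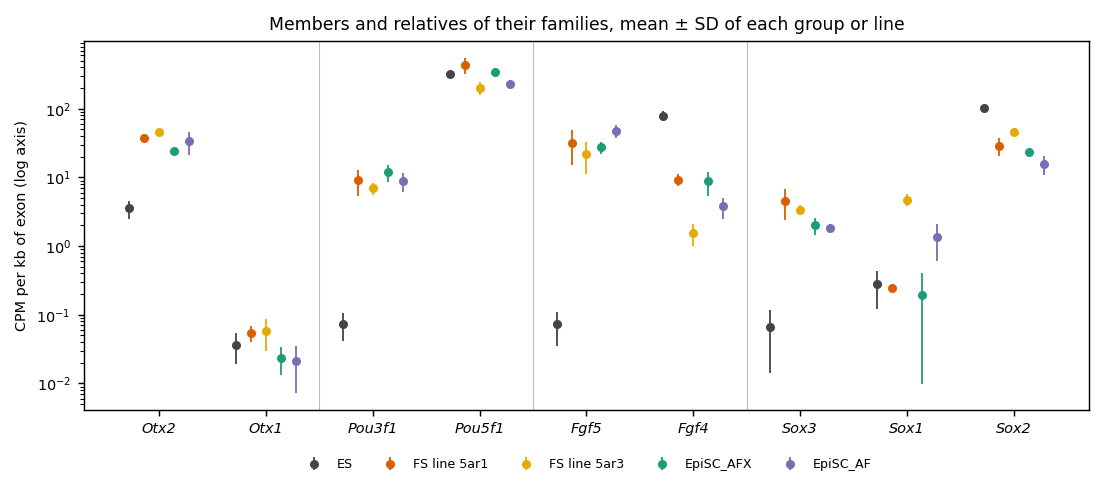
Mean level in CPM per kb of exon (log axis) with its SD for 4 of the genes and 5 relatives, by group or FS line; a lower error bar that would reach 0 is cut at 95% of the mean. Fgf5 and Sox3 are lowest in ES whereas Fgf4 and Sox2 are highest there, and Sox1 is apart in the FS line 5ar3 at 4.74 against 0.244 in 5ar1.

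Between the FS lines, 5 of the 7 tested relatives were called by edgeR, where 3.88% of all tested genes were called. Sox2 and Pou3f2 were not called. Fgf4 (log2 2.59) and Pou5f1 (1.12) were higher in 5ar1, and Pou3f3 (-4.39), Sox1 (-4.27) and Pou3f4 (-4.01) were lower there. Sox1, a SoxB1 gene of early neuroectoderm, stood at 1.05 to 1.31 CPM in 5ar1 and 18.5 to 27.3 CPM in 5ar3, without overlap, while Sox3 overlapped between the lines. Of 7 neuroectoderm markers, 4 were lower in 5ar1 (Zic1, Six3, Sox1 and Hesx1) and none was higher. The summed level of that list was 191.9 to 403.4 CPM in 5ar1 and 227.8 to 375.2 CPM in 5ar3, and Nes alone averaged 283.3 and 249.5 CPM. The Hesx1 call was lost under 6 of 13 alternatives. In FS against ES, 6 of the 7 neuroectoderm markers were called higher by edgeR, where 32.9% of all tested genes were called higher and 62.8% in either direction. With 5ar1 alone, 3 were called higher and 1 lower. The list summed to 25.1 to 35.8 CPM in ES, 379.1 to 665.7 in EpiSC_AFX and 281.6 to 512 in EpiSC_AF. The part of these markers in the levels of Otx2, Pou3f1 and Sox3, which are also expressed in early neural cells, was not tested.

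For Fgf5, the FGF ligands, receptors and feedback genes were counted next to it. In FS against ES, 10 of 16 were called higher and 2 lower by edgeR, where 32.9% of all tested genes were called higher and 62.8% in either direction. The median log2 fold change of the list was 1.94, against 0.04 over all tested genes. Spry1 (log2 2.30), Dusp6 (3.16) and Dusp4 (3.72), feedback inhibitors of FGF and ERK signalling, and the ligand Fgf15 (7.27) had the smallest p. Against EpiSC_AFX, Dusp6 (log2 -1.27) and Il17rd (-0.99) were lower in FS. Against EpiSC_AF, Fgf8 (-3.91), Dusp4 (-2.16), Il17rd (-1.17), Dusp6 (-1.07) and Spred1 (-0.82) were lower and the receptor Fgfr4 (3.91) was higher. The groups were grown in different media, and the part of the medium in these differences was not tested. Dusp6 was called under 10 of 20 alternatives against EpiSC_AFX and 8 of 20 against EpiSC_AF. The Il17rd call against EpiSC_AFX was lost with total counts and without the EpiSC_AFX library of passage 12 (adjusted p = 0.114 and 0.0691). That of Fgfr4 was lost without the EpiSC_AF library of passage 14 (adjusted p = 0.0628), and that of Spred1 with total counts (0.0559). Between the FS lines, Fgf4, Etv5 and Dusp6 were higher in 5ar1 and Fgfr1, Fgfr2 and Fgfr3 lower. The calls of Etv5, Dusp6 and Fgfr1 were each lost under 7 of 13 alternatives and that of Fgfr2 under 3.

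For Tcf15, the E proteins that bHLH factors pair with and the Id proteins that block them were counted. In FS against ES, 2 of 7 were called higher and 2 lower by edgeR, where 62.8% of all tested genes were called. Tcf12, an E protein, was higher (log2 1.05, adjusted p = 1.24e-06), with means of 113.7 CPM in FS and 54.8 CPM in ES. Id2 was higher (log2 2.62), and Id4 (-3.45) and Tcf4 (-0.61) were lower. Against EpiSC_AF, Id1 was lower in FS (log2 -1.95, edgeR adjusted p = 0.00865), a call lost without the EpiSC_AF library of passage 14 (0.0811), with passage as a covariate (0.0709) and with 5ar3 alone (0.0650). With total counts Tcf4 was not called against ES (adjusted p = 0.278). Of the paraxial mesoderm and streak list, 3 of 7 genes were tested, and Msgn1 was at 0 in all FS and ES libraries.

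Other formative and early post-implantation epiblast genes, 20 in all, were set beside the 5. In FS against ES, 16 were called higher and 2 lower, where 32.9% of all tested genes were called higher and 62.8% in either direction. The median log2 fold change of the list was 3.23, against 0.04 over all tested genes. The 4 with the smallest p were Sox4 (log2 4.67), the let-7 inhibitor Lin28b (5.03), the DNA methyltransferase Dnmt3a (3.71) and Sall2 (5.12). Dnmt3l (-5.60) and Etv5 (-1.49) were lower, and Etv4 and Zfp281 were not called. With 5ar3 alone 13 were called higher, where 5930 of 18255 tested genes were. Foxd3, Grhl2 and Utf1 were then not called (edgeR adjusted p = 0.122, 0.716 and 0.320). Between the FS lines 4 of the 20 were called, where 3.88% of all tested genes were called. Grhl2, Fzd7 and Etv5 were higher in 5ar1 and Cdh2 was lower. EpiSC_AFX against ES had 15 higher and 1 lower, where 28.5% of all tested genes were called higher and 54.7% in either direction. EpiSC_AF against ES had 13 higher and 2 lower, where 29.7% of all tested genes were called higher and 56.7% in either direction.

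Sall2, a zinc-finger factor, and Sox4, a SoxC factor, were the genes of that list that FS had above both EpiSC groups. Of the 20 genes, 2 were called against EpiSC_AFX, where 5% of all tested genes were called. Against EpiSC_AF 3 were called, where 16.6% of all tested genes were called. Sall2 averaged 151.2 ± 22.1 CPM in FS (SD, n = 6), 71.6 ± 19.9 in EpiSC_AFX (SD, n = 3), 43.65 ± 5.08 in EpiSC_AF (SD, n = 3), and its ES mean was 4.30 ± 1.66 CPM (SD, n = 4). Its FS libraries were all above those of the other groups. That was so for 24.4% of tested genes against ES, 5.46% against EpiSC_AFX and 9.25% against EpiSC_AF. Sall2 was called against EpiSC_AFX (log2 1.08, edgeR adjusted p = 0.00997) and EpiSC_AF (1.79, adjusted p = 6.82e-05). Without the EpiSC_AFX library of passage 12 or 8 it was not called against EpiSC_AFX (adjusted p = 0.0650 and 0.0652). Sox4 was called against EpiSC_AFX (log2 0.58, adjusted p = 0.0450), a call lost under 11 of 20 alternatives, and EpiSC_AF (0.73, adjusted p = 0.00447). Fgf8 was lower in FS than in EpiSC_AF.

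**Figure D5:**
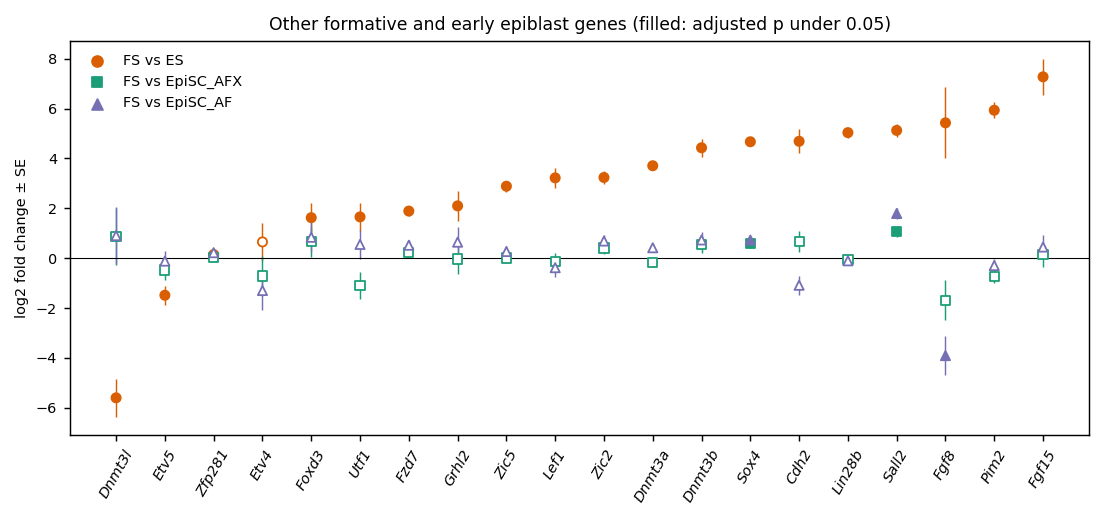
Log2 fold change and its standard error for the 20 other formative and early epiblast genes, in FS against ES, EpiSC_AFX and EpiSC_AF; filled symbols had an edgeR adjusted p under 0.05. Against ES 16 genes are filled above 0 and 2 below. Only Sall2 and Sox4 are filled against EpiSC_AFX, and only Sall2, Sox4 and Fgf8 against EpiSC_AF. Over all tested genes 62.8% were called against ES, 5% against EpiSC_AFX and 16.6% against EpiSC_AF.

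The genes with the most similar profiles were found by the root mean square difference of centred log2 CPM over all 16 libraries, among tested genes with a mean of at least 1 CPM. For Otx2 they were Kcnmb4 (0.34), Ptpn13 (0.34) and Psd3 (0.36). For Pou3f1 they were Kcnj3 (0.48), Zfp608 (0.49) and Myrf (0.51), and for Fgf5 they were Pkdcc (0.57), St6gal2 (0.67) and Hprt (0.67). For Sox3 they were Adamts19 (0.38), Trpc1 (0.41) and Zfp467 (0.42), and for Tcf15 they included Traf3 (0.42) and Pard3 (0.43). These likenesses share the step between ES and the other groups, and over the 12 libraries outside ES 0 of the 3 genes recurred for each of the 5. Among the 5 genes, Otx2 and Sox3 were the closest pair (0.90), followed by Pou3f1 and Fgf5 (0.94), and Fgf5 and Tcf15 were the farthest apart (3.30). The prior count of 2 used here raises log2 CPM where reads are few, as for Fgf5, Pou3f1 and Sox3 in ES. The order of the pairs was not examined at another prior count.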

How the data were processed

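Bulk RNA-seq libraries were made from Trizol and column-purified total RNA with a directional kit, per the labels' protocols. The deposited values are raw counts per gene that the authors made with Trim Galore, TopHat2 2.1.0 and featureCounts 1.5.0 on mm10, per the submitters' processing notes; the strand setting is not given in the sources used here. A further 6 columns matched no sample label and were not used. Samples were grouped by the labelled culture medium and cell type. Tests used R 4.3.3 with edgeR 4.0.16. The filterByExpr filter left 18555 genes (all 5 members passed, and Fgf5, Pou3f1 and Sox3 did so through groups other than ES). After TMM scaling, all 16 libraries entered a robust quasi-likelihood fit with 1 mean per group. Calls were made at a Benjamini-Hochberg adjusted p under 0.05 over all tested genes. FS lines were compared with a mean per line, and passage by a common slope added to that. No libraries of a line agreed within sampling noise (chi-square over its degrees of freedom at least 8.40). Total counts of 22069338 to 33290250 limit precision for genes with few reads.

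The 5 members, the gene lists and the tests were chosen with earlier results of these data known. From each list, the text names at most the 4 genes with the smallest adjusted p in FS against ES and genes called between FS and an EpiSC group or between the FS lines. Exceptions named after their values were seen are the genes lower in FS against ES, those not called, Xlr3a, Otx2os1, the fibroblast and sex-chromosome genes. Likeness named 3 genes per member, on log2 CPM with a prior count of 2; 1 gene is not reported here. Alternatives were DESeq2 1.42.0 size factors and Wald test, total-count scaling, other low-count filters, omission of mitochondrial rRNA genes, passage as a covariate, fits of only the groups compared, single FS lines and omission of each library. Fits of passage slopes per line, and without the ES line or the FS lines, were added after the data were seen. Promoter sequences came from RefSeq (GRCm38.p6) and gene models from GENCODE M21. Scripts were tested on simulated counts.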

Additional observations from a re-analysis of the deposited data

Results flagged for a closer look

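A single library stood apart from the rest of its group in 2 of 10 gene and group sets examined. The nominal chance rate of this rule, about 5% of sets, assumes normally distributed values. It may not hold for CPM from few reads or for FS, which holds 2 lines. Sox3 in FS was 14.6 CPM in the 5ar1 library of passage 10, and 5.89 to 8.41 CPM in the other FS libraries. Without that library Sox3 was still called higher in FS than in ES by edgeR. Sox3 in ES was 0.298 CPM at passage 20, from 7 reads, and at most 0.0911 CPM, from 1 or 2 reads, in the other ES libraries. The same library had the highest Tcf15 (2.85 CPM) and Fgf5 (0.298 CPM) of the ES group.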

How the results depend on the processing

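Of 725 values of the 5 genes recomputed under alternatives, 686 kept their direction and their side of the threshold, 4 lost a call, 14 gained one and 21 changed sign. Against ES, Otx2, Pou3f1, Fgf5 and Sox3 were called higher in every alternative for FS, EpiSC_AFX and EpiSC_AF. The number of the 5 genes called in FS against EpiSC_AFX was 0, and it was 2 with DESeq2's Wald test, 1 with only these groups fitted and 1 with 5ar3 alone. For FS against EpiSC_AF it was 1, and 0 to 2 on leaving out single libraries. For EpiSC_AFX against EpiSC_AF it was 0, and 1 with only these groups fitted. For the passage slope it was 0, and it was 1 without the low-count filter, 1 with DESeq2's Wald test and 0 to 1 on leaving out single libraries. Tcf15 in EpiSC_AF against ES was called with DESeq2's Wald test (adjusted p = 0.0453) and with passage as a covariate (edgeR adjusted p = 0.0377). Signs changed only in differences that had not been called, or with 1 FS line alone. Fgf5 in FS against EpiSC_AFX was 0.0955 with total counts, 0.189 with 5ar1 alone and -0.266 to 0.091 on leaving out single libraries. Pou3f1 in FS against EpiSC_AF was 0.0508 with passage as a covariate, 0.0318 with 5ar1 alone and -0.353 to 0.0727 on leaving out single libraries. In EpiSC_AFX against EpiSC_AF with passage as a covariate, Fgf5 was 0.0483 and Tcf15 0.0089, and leaving out single libraries gave -0.0847 to 0.315 for Sox3. Between FS lines, leaving out single libraries gave -0.0442 to 0.675 for Sox3 and -0.475 to 0.185 for Tcf15. The Sox3 passage slope was -0.0257 without the ES line and -0.044 to 0.0347 on leaving out single libraries, and that of Pou3f1 was -0.0651 without the FS lines. With 5ar1 alone against ES, Sox1 was -0.22 and Zic1 -0.85, both called higher with both lines. Apart from the single lines and omitted libraries, which change the samples, the cause was not tested. Total-count scaling moved the median log2 difference of all genes from 0.04 to 0.40 in FS against ES, from 0.01 to 0.25 and 0.29 in EpiSC_AFX and EpiSC_AF against ES, and from 0.04 to 0.16 in FS against EpiSC_AFX. With it 7935 of 11257 genes called in FS against ES were higher, against 6102 of 11645 with TMM. The number of genes called ranged from 380 to 1765 in FS against EpiSC_AFX, 1799 to 3837 in FS against EpiSC_AF, 351 to 2276 between the EpiSC groups, 286 to 1549 between the FS lines and 0 to 21 for passage. No paired analysis was possible because replicate numbers only follow the order of deposit and pair nothing. Fgf5, Pou3f1 and Sox3 rest on 10 reads or fewer in each ES library, so their ratios to ES are imprecise. The counting intervals given cover counting error only, and not the spread between libraries.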

Other observations

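Xlr3a, an X-linked gene, was the only gene besides Fgf5 whose level was higher at each later passage in all 5 lines, and it was named after its values were seen. For Fgf5 the ES step from passage 13 to 15 was 4 reads at both. Xlr3a in 5ar1 was 0.889, 1.43 and 1.83 CPM at passages 10, 12 and 14. In AF32 it was 31.1, 32.2 and 44.0 CPM at passages 13, 14 and 15. Its common slope was 0.25 log2 units per passage (SE 0.034, edgeR adjusted p = 0.0251).

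Hprt, the purine salvage enzyme that the likeness rule named for Fgf5, averaged 0.395 ± 0.106 CPM in the ES line (SD, n = 4). It averaged 89.5 ± 12.7 CPM in FS (SD, n = 6), 117.5 ± 16.8 in EpiSC_AFX (SD, n = 3) and 90.3 ± 4.24 in EpiSC_AF (SD, n = 3). ES is 1 line here, so a feature of that line and one of the naive state cannot be told apart.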
